A study of Mus musculus with 6 samples.

Results

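Metalloproteinases of the extracellular matrix and their inhibitors were followed in single cells of the fetal mouse small intestine. The group holds 9 of the 24568 genes of the matrix and was chosen by symbol, with earlier results of these data known. It holds the proteases Mmp2, Mmp11, Mmp14, Mmp16 and Mmp23, and the inhibitors Timp1, Timp2, Timp3 and Reck. All 9 had a row. The tissue came from C57/BL6 mice carrying the Pdgfra-H2BGFP reporter, in which nuclear green fluorescent protein marks Pdgfra-expressing cells, and no other allele or treatment is given. Embryos of E13.5 (4 pooled replicates), E14.5 (3), E15.5 (2), E16.5 (2) and E18.5 (2) were cut along the gut into pieces of 2.5 mm, tagged with lipid-anchored barcodes and pooled. The 6 labelled samples were 2 lanes of all live Ter119-negative cells and 1 lane of sorted cells for E13.5, E14.5 and E18.5 together, and the same 3 lanes for E15.5 and E16.5 together. A sorted lane mixed CD31+, CD45+, Epcam+ and GFP-high cells, so it is no pure population.

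The deposited matrix pools everything, and no label ties a barcode ending to a lane, an age or a gut piece. Cells are therefore described by the 6 barcode endings as technical sets: A1, A2 and A3 for one ending group (A), and B1, B2 and B3 for the other (B). This layout has the same shape as the labelled lanes, but which set is which sample cannot be told apart. Each set is a single library at most, so no comparison here has a replicate and no p-value is given. Intervals are exact 95% intervals that cover counting error only. Levels are UMIs of a gene per 1000000 UMIs of the set (CPM), where a UMI is a tag for 1 captured RNA molecule. The kit reads 3' ends, so CPM was not divided by gene length.

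Matrix metalloproteinases are zinc enzymes that cut collagens, laminins and other matrix proteins and release growth factors held there. MMP14 and MMP16 sit in the plasma membrane, and MMP14 together with TIMP2 is known to activate the secreted gelatinase MMP2 at the cell surface. TIMPs are secreted inhibitors that block the active site, TIMP3 is bound to the matrix, and RECK is a membrane-anchored inhibitor. In the fetal gut these genes are mostly products of the mesenchyme that lies under the epithelium.

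After filtering, 12623 of 13127 cells were kept, between 1177 (A3) and 2508 (B2) per set. Median depth ran from 7058 to 13586 UMIs per cell in A and from 3548 to 4175 in B. Shares of cells were therefore read after every cell was thinned to 2000 UMIs, as a mean over 20 draws. In all 6 sets at least 99.9% of cells held a UMI of the 8 mesenchyme markers, such as Col1a1 and Dcn. The 8 PDGFRA-high markers summed to 2188 CPM in A3 and 1382 CPM in B3, against 274 to 345 CPM in the other 4 sets. The 6 epithelium markers were all detected in every set and summed to 255 CPM in A3 against 36.9 and 34.4 CPM in A1 and A2, and to 72.4 CPM in B3 against 23.7 and 27.7 CPM. Cell cycle genes of the G2/M list were lower in set 3, at 1258 CPM in A3 against 2485 and 2259 CPM, and at 648 CPM in B3 against 1974 and 1799 CPM. Enterocyte genes, which mark free RNA of the epithelium, summed to 2330 CPM in A3 against 492 and 472 CPM, and erythroid genes to 3726 CPM in B3 against 1861 and 1795 CPM. The part of these differences in the results for the proteases and inhibitors was not tested, except where values within classes of cells are given. In all, 22 barcode sequences occurred in more than 1 set.

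Across all cells Mmp2 was the most abundant of the 9 genes, at 230 CPM, followed by Mmp14 (136 CPM), Timp2 (114 CPM) and Timp3 (75.2 CPM). The other 5 genes lay between 15.0 CPM (Mmp16) and 29.9 CPM (Mmp23). These are UMI levels and not levels per length. The order Mmp11 (15.98 CPM, 95% interval 15.2 to 16.8) before Mmp16 (15.0, 14.2 to 15.8) is within counting error, while the intervals of every other pair of neighbours in the order were apart. Of the 18 other mouse MMP genes searched, 16 had a row and none reached 20 CPM in any set. The highest of them was Mmp9, a gelatinase of leukocytes and other cells, at 8.51 CPM in A3, and the remaining inhibitor Timp4 stayed at or under 1.69 CPM.

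**Figure D1:**
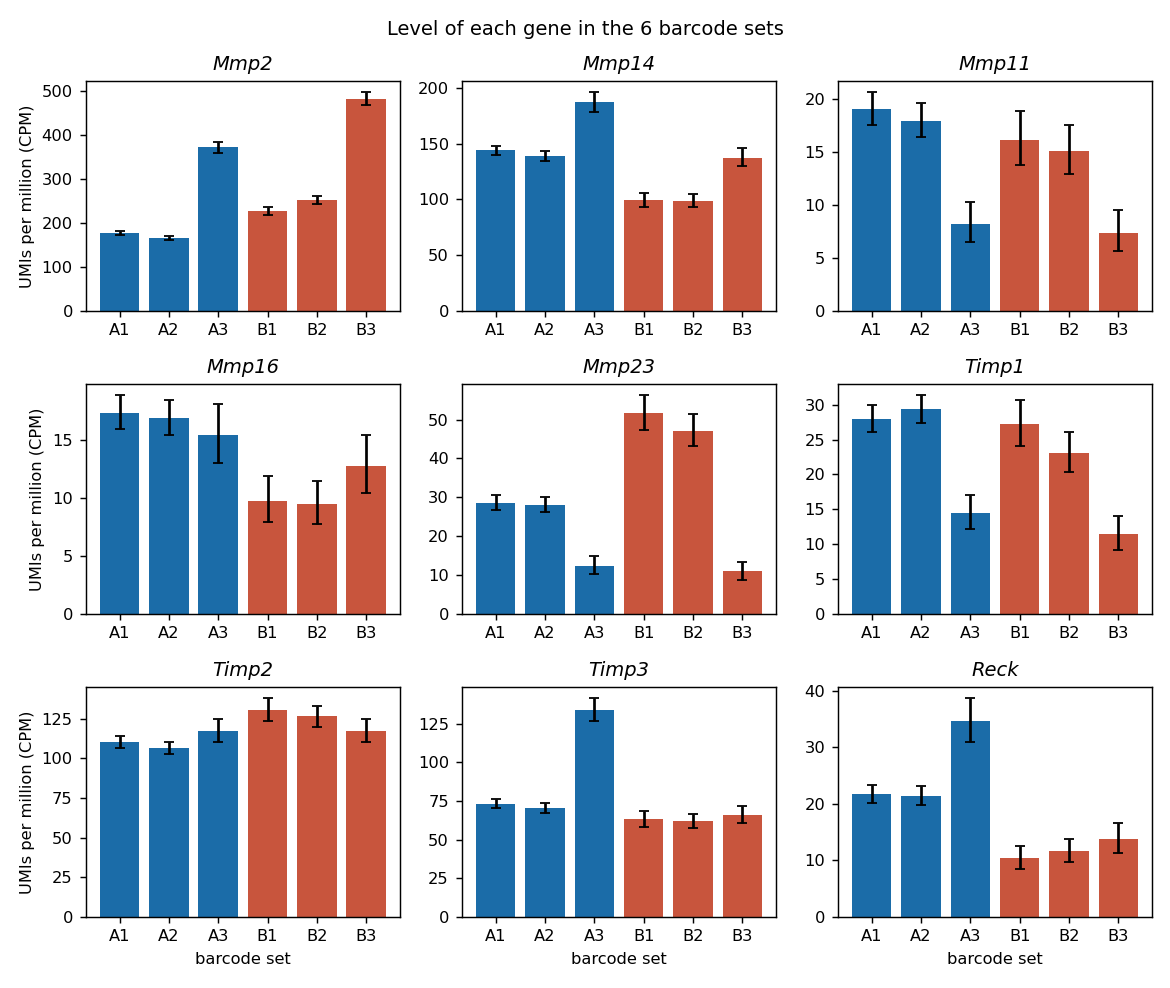
Level of each gene (CPM, y axis) in the barcode sets A1 to A3 (blue) and B1 to B3 (red); bars are the pooled cells of a set and error bars exact 95% Poisson intervals for counting error only. Mmp2 is highest in A3 (371 CPM) and B3 (482 CPM), while Mmp11, Mmp23 and Timp1 are lowest there.

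Set 3 stood apart from sets 1 and 2 in most of these genes, in both endings. Mmp2 and Mmp14 were higher in set 3 and Mmp11, Mmp23 and Timp1 were lower in it. Timp3 and Reck were higher in A3, with smaller differences in B3, and Timp2 and Mmp16 lay on opposite sides of sets 1 and 2 in the endings, within 1.5-fold in each. A gene was counted as different where its CPM differed by at least 1.5-fold and the higher side had at least 20 CPM. By that rule 3 of the 9 genes were higher in A3 (Mmp2, Timp3, Reck) beside 17.2% of 7421 genes tested, and 2 were lower (Mmp23, Timp1) beside 15.9%. In B3, 1 gene was higher (Mmp2) beside 21% of 6410 genes tested, and the same 2 were lower beside 11.1%. Of the 9 genes, 7 reached 20 CPM in A and 6 in B. Counts over so few genes are given as a description. The median log2 ratio of set 3 over sets 1 and 2 was 0.11 over the 9 genes in A, beside -0.05 over all genes tested, and 0.08 in B, beside 0.12. The medians of the 9 genes include those under 20 CPM (Mmp11 and Mmp16, and Reck in B). The medians over all genes tested leave such genes out, so the medians cannot be compared like for like. Sets 1 and 2 differed from each other by at most 0.09 on the log2 scale in A and 0.23 in B for any of the 9 genes.

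**Figure D2:**
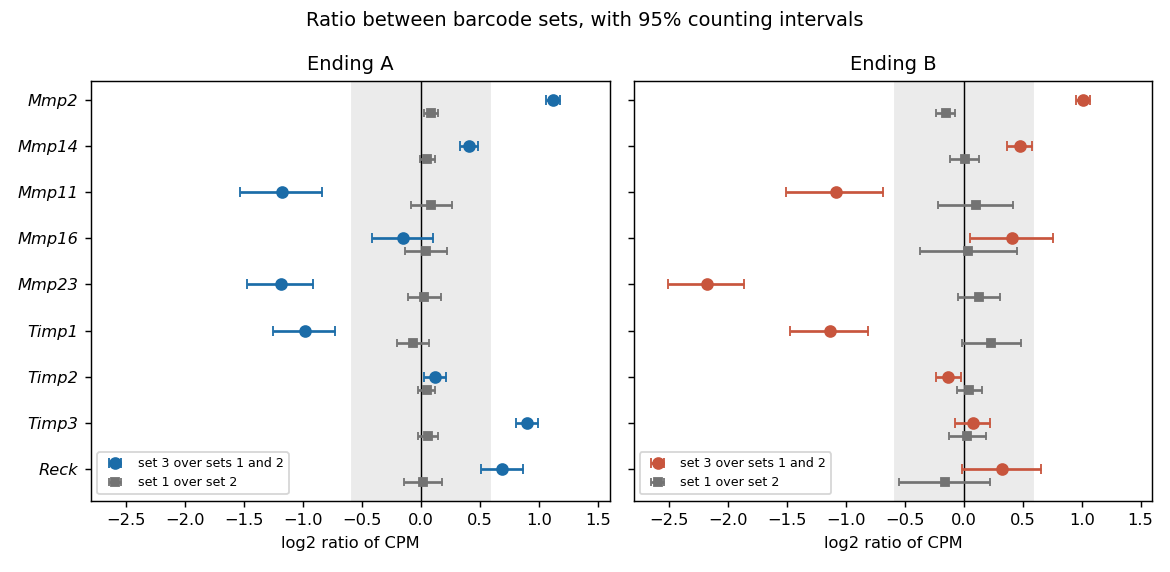
Log2 ratio of CPM (x axis) of set 3 over the sum of sets 1 and 2 (coloured points) and of set 1 over set 2 (grey squares) for each gene (y axis) in ending A and ending B, with exact 95% counting intervals; the grey band is 1.5-fold either way. Mmp2 lies near 1 in both endings, Mmp23 at -1.19 and -2.18, and the grey squares stay within 0.23 of 0.

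Mmp2, the gelatinase that cuts denatured collagen and type IV collagen, measured 176, 166 and 371 CPM in A1, A2 and A3. In B1, B2 and B3 it measured 226, 251 and 482 CPM. Set 3 was the highest in each ending, with no overlap of the counting intervals. The log2 ratio of set 3 over sets 1 and 2 was 1.12 (95% interval 1.06 to 1.17) in A and 1.01 (0.95 to 1.07) in B. At 2000 UMIs per cell a Mmp2 UMI was found in 30.0%, 28.8% and 51.8% of cells in A1 to A3, and in 35.6%, 38.8% and 61.3% in B1 to B3. The gene lies on chromosome 8 (GRCm38, 92827291 to 92853420, plus strand).

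The levels were also read within kinds of cell. Clusters were made within each ending without the 9 genes or their pathway lists, and were called PDGFRA-high from markers such as Pdgfra, Foxl1 and Sox6. PDGFRA-high clusters held 87.6% of the cells of A3 but 2.15% and 1.92% of A1 and A2, and 91.3% of B3 but 19.0% and 20.5% of B1 and B2. Within PDGFRA-high clusters Mmp2 measured 343, 440 and 404 CPM in A1 to A3, where A3 lay between the others, and the log2 ratio of A3 over A1 and A2 was 0.06 (-0.11 to 0.23). That A value rests on 53 cells of A1 and 40 cells of A2. In B, Mmp2 in PDGFRA-high clusters measured 321, 405 and 503 CPM, and the ratio was 0.45 (0.36 to 0.55). In the other mesenchyme clusters the ratio was 0.53 in A and 0.68 in B. The cells of a class did not sit in the same clusters in set 3 and in sets 1 and 2, which bears on every ratio within a class. Of the other mesenchyme cells, Ac10, led by Apela and Cd74, held 88 of 146 in A3 but 168 of 4453 in A1 and A2, and it had 285 CPM of Mmp2. Bc0, led by Ogn and Cxcl13, held 10 of 170 in B3 but 1296 of 3677 in B1 and B2, and it had 174 CPM of Mmp2. The largest cluster of this class in B3 was Bc5, with 58 cells and 390 CPM of Mmp2. Among PDGFRA-high cells Ac1 was the largest cluster on both sides in A, while in B it was Bc1 in B3 (842 of 1991) and Bc2 in B1 and B2 (430 of 935). Within every one of the 6 sets PDGFRA-high clusters had more Mmp2 than other mesenchyme, by 0.52 to 1.44 on the log2 scale, and none of these counting intervals reached 0. Single clusters of the classes overlapped in A. The other mesenchyme clusters Ac4 and Ac14 had 410 and 352 CPM, and the PDGFRA-high clusters Ac12, Ac1 and Ac11 had 325, 359 and 608 CPM.

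Mmp14, the membrane-bound protease that activates MMP2, measured 144, 139 and 188 CPM in A1 to A3. It measured 99.3, 98.9 and 137 CPM in B1 to B3. Set 3 was again the highest in both endings, at log2 ratios of 0.41 (0.33 to 0.48) and 0.47 (0.37 to 0.58), which is under 1.5-fold. Within PDGFRA-high clusters the order in A was the opposite: A3 had 194 CPM against 220 and 304 CPM in A1 and A2, a log2 ratio of -0.41 (-0.62 to -0.20). In B it stayed at 0.25 (0.09 to 0.42). Within each set Mmp14 was higher in PDGFRA-high clusters than in other mesenchyme, by 0.25 to 1.15 on the log2 scale in 6 of 6 sets. That holds for the classes taken whole and not for each cluster of A. The other mesenchyme clusters Ac8 and Ac4 had 357 and 258 CPM. The PDGFRA-high clusters Ac1, Ac12 and Ac11 had 174, 194 and 275 CPM. At 2000 UMIs a Mmp14 UMI was found in 26.4%, 25.03% and 30.8% of cells in A1 to A3, and in 18.7%, 18.4% and 23.2% in B1 to B3. Mmp14 lies on chromosome 14 (54431612 to 54445364, plus strand).

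Mmp16, a second membrane-bound protease, was low, at 17.4, 16.9 and 15.4 CPM in A1 to A3 and 9.76, 9.50 and 12.7 CPM in B1 to B3. All 3 intervals overlapped within each ending, while the log2 ratio of set 3 over sets 1 and 2 summed was -0.15 (-0.42 to 0.10) in A and 0.41 (0.05 to 0.75) in B. No set passed 20 CPM, and at 2000 UMIs 1.81% to 3.79% of cells held a UMI. Its level was uneven over clusters in A, as given with the clusters. It lies on chromosome 4 (17852893 to 18119145, plus strand).

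Mmp23, a small protease whose anchor is removed before secretion, measured 28.6, 28.02 and 12.4 CPM in A1 to A3. In B1 to B3 it measured 51.7, 47.1 and 10.9 CPM. Set 3 was the lowest in both endings, with log2 ratios of -1.19 (-1.48 to -0.92) and -2.18 (-2.51 to -1.86), and the B value was the largest difference among the 9 genes. At 2000 UMIs a Mmp23 UMI was found in 6.44%, 6.13% and 2.18% of cells in A1 to A3, and in 9.21%, 8.39% and 1.97% in B1 to B3. Levels were higher in other mesenchyme, in all 6 sets: 58.5 and 55.0 CPM in B1 and B2, against 17.1 and 15.8 CPM in PDGFRA-high clusters of the same sets. In A2 they were 28.1 and 24.0 CPM, and the log2 ratio of PDGFRA-high over other mesenchyme included 0 (-0.23, -1.36 to 0.71). The interval came near 0 in A3 (-1.25 to -0.02), and A1 had 2 Mmp23 UMIs in PDGFRA-high clusters. Within PDGFRA-high clusters the ratio of set 3 was -0.26 (-1.17 to 0.80) in A and -0.72 (-1.25 to -0.19) in B. Within other mesenchyme it was -0.71 in A and -1.48 in B, where Ac10, the main cluster of A3, had 12.8 CPM and Bc0, nearly absent from B3, had 90.3 CPM. The gene lies on chromosome 4 (155650655 to 155653384, minus strand).

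Mmp11, also called stromelysin 3 and activated inside the cell, measured 19.0, 17.9 and 8.19 CPM in A1 to A3 and 16.1, 15.1 and 7.35 CPM in B1 to B3. Its log2 ratios of -1.18 (-1.53 to -0.84) and -1.08 (-1.50 to -0.68) were as large as those of Timp1, but no set reached 20 CPM and the gene was not counted. Set 3 was the lowest in each ending. Within PDGFRA-high clusters the ratio was 0.17 (-1.04 to 1.67) in A and 0.00 (-0.74 to 0.78) in B, on few UMIs. The gene lies on chromosome 10 (75923222 to 75936496, minus strand) and overlaps Chchd10 on the other strand, and whether the authors' counting used strand is not given in the sources used here.

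Among the inhibitors, Timp1 was the only one lower in set 3 by the 1.5-fold rule. It measured 27.96, 29.3 and 14.4 CPM in A1 to A3 and 27.2, 23.1 and 11.4 CPM in B1 to B3. The log2 ratios were -0.99 (-1.25 to -0.73) and -1.14 (-1.47 to -0.82). At 2000 UMIs 4.22% to 5.56% of cells of sets 1 and 2 held a Timp1 UMI, against 2.52% in A3 and 2.30% in B3. In PDGFRA-high clusters Timp1 was between 8.80 and 13.8 CPM in all 6 sets, and the ratio of set 3 there was 0.35 (-0.63 to 1.52) in A and -0.22 (-0.80 to 0.37) in B. It lies on chromosome X (20870166 to 20874735, plus strand) inside Syn1, which is on the minus strand and stayed under 1 CPM in every set (0.22 to 0.99 CPM).

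The 250 bases upstream of the RefSeq start of 3 of these genes are printed in 5′ to 3′ direction of the gene, from the RefSeq promoter table of build GRCm38.p6. They are shown because Mmp23 and Timp1 were lower together in set 3 while Mmp14 was higher there. Capitals mark matches of the GC box GGGCGG on either strand; for Mmp23 the first of its 2 listed starts is shown.
Mmp23 (chr4:155653385-155653634, minus strand): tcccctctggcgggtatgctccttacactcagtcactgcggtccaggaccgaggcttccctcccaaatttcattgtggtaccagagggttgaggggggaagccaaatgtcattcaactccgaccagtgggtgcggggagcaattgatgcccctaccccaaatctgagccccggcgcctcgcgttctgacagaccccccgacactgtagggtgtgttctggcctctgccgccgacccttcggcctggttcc
Timp1 (chrX:20869916-20870165, plus strand): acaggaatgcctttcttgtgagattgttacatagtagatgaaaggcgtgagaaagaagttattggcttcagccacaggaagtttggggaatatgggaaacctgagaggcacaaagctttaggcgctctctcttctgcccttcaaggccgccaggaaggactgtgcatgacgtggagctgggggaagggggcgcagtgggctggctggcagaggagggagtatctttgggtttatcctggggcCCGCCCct
Mmp14 (chr14:54431348-54431597, plus strand): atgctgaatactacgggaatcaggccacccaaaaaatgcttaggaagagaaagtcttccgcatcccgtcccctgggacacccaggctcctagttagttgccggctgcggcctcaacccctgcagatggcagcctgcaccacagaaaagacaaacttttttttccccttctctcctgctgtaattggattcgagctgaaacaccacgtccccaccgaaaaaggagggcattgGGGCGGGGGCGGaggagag
Mmp23 had 0 GC box matches, Timp1 had 1, read on the minus strand as CCGCCC, and Mmp14 had 2 that lie side by side just before the start. Among the other genes Mmp11, also lower in set 3, had 2, as had Reck, and Timp2 and Timp3 had 1 each. A GC box was present in 32.7% of 32851 promoters of the same length. The AP-1 motif TGANTCA, present in 6.75% of promoters, and the TATA motif TATAAA, present in 12.4%, were not found in any of the 3 on either strand. Of the 9 genes 7 had an entry; Mmp2 and Mmp16 were not matched. These matches describe letters in a window and not binding of a factor.

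Timp2, the inhibitor that also serves in MMP2 activation, varied little between sets. It measured 110, 107 and 117 CPM in A1 to A3 and 131, 126 and 117 CPM in B1 to B3. The log2 ratio of set 3 was 0.11 (0.02 to 0.21) in A and -0.13 (-0.24 to -0.02) in B. At 2000 UMIs 20.7% to 23.4% of cells held a Timp2 UMI in the 6 sets. Within PDGFRA-high clusters it lay between 109 and 127 CPM in all 6 sets. In other mesenchyme it was lower in set 3, at 81.8 CPM in A3 against 110 and 106 CPM, and at 84.8 CPM in B3 against 132 and 128 CPM. The cells again sat in different clusters: Ac10, which held most of this class in A3, had the lowest Timp2 of A (62.0 CPM), and Bc0, which held 10 of its cells in B3, had the highest of B (171 CPM). It lies on chromosome 11 (118301069 to 118355740, minus strand), where Cep295nl overlaps on the same strand, so reads of the pair could be split or lost in counting.

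Timp3, the matrix-bound inhibitor that also blocks ADAM and ADAMTS proteases, behaved differently in the endings. In A1 to A3 it measured 73.2, 70.4 and 134 CPM, and A3 stood clear of the others at a log2 ratio of 0.90 (0.81 to 0.99). In B1 to B3 it measured 63.2, 61.9 and 65.9 CPM with overlapping intervals, at 0.08 (-0.07 to 0.22). A Timp3 UMI was found in 12.7%, 12.4% and 20.7% of thinned cells in A1 to A3, and in 10.2% to 10.8% in B1 to B3. PDGFRA-high clusters held more Timp3 than other mesenchyme in A1, A2 and A3 (143 to 148 CPM against 69.4 to 81.3 CPM). In B1, B2 and B3 PDGFRA-high clusters held 54.0 to 61.4 CPM against 58.6 to 73.5 CPM, and the intervals of all 3 ratios included 0. Within PDGFRA-high clusters the ratio of A3 over A1 and A2 was 0.03 (-0.25 to 0.31). The difference between endings was not tested, since ages and lanes cannot be told apart from it. Timp3 lies on chromosome 10 (86300372 to 86349506, plus strand) inside Syn3 of the other strand, which measured 2.12 to 7.11 CPM and was also highest in A3.

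Reck, the membrane-anchored inhibitor of MMP2 and MMP14, measured 21.7, 21.4 and 34.7 CPM in A1 to A3. It measured 10.4, 11.6 and 13.7 CPM in B1 to B3. A3 stood above A1 and A2, at 0.69 (0.51 to 0.87), while in B the ratio of 0.32 (-0.02 to 0.65) included 0. At 2000 UMIs a Reck UMI was found in 4.46%, 4.61% and 7.19% of cells in A1 to A3, and in 2.02% to 2.69% in B1 to B3. PDGFRA-high clusters had more Reck than other mesenchyme in 6 of 6 sets, by 0.09 to 0.55 on the log2 scale, but the interval excluded 0 in A3 only. It lies on chromosome 4 (43875530 to 43944806, plus strand).

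**Figure D3:**
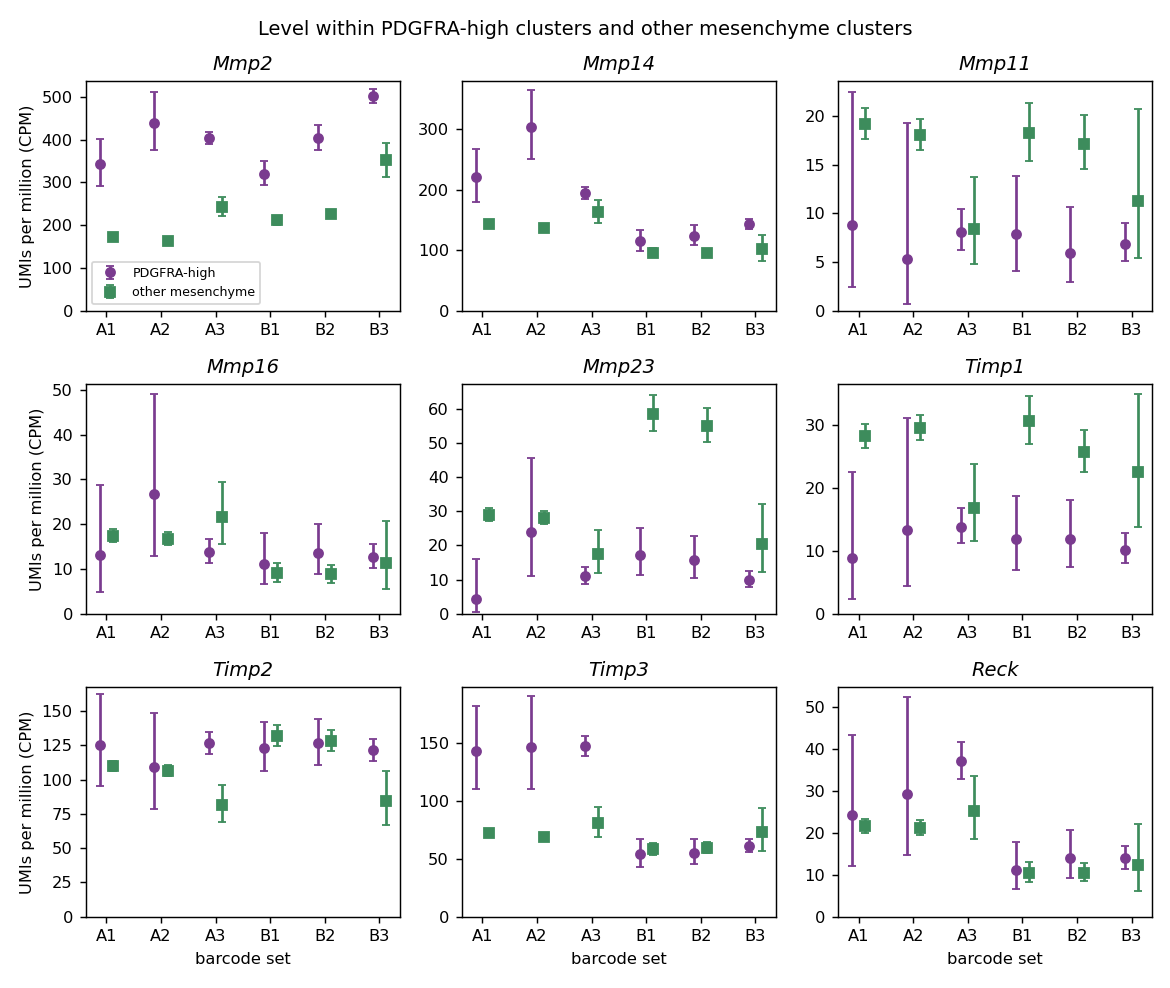
Level of each gene (CPM, y axis) in PDGFRA-high clusters (purple circles) and other mesenchyme clusters (green squares) of each barcode set (x axis), with exact 95% Poisson intervals for counting error only. Mmp2 is higher in PDGFRA-high clusters in all 6 sets, while Mmp23 and Timp1 are lower there. The interval of the ratio between the classes includes 0 for Mmp23 in A2 and for Timp1 in A2 and A3.

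Summed over the group, protease UMIs outnumbered inhibitor UMIs in every set. There were 1.65, 1.62 and 1.98 protease UMIs per inhibitor UMI in A1 to A3 and 1.74, 1.89 and 3.12 in B1 to B3. Set 3 was the highest in each ending, with intervals clear of the others (1.89 to 2.07 in A3, 2.96 to 3.30 in B3). These sums were taken over all cells of a set. PDGFRA-high clusters held 87.6% of the cells of A3 but 2.15% and 1.92% of A1 and A2. In B they held 91.3% of B3 but 19.0% and 20.5% of B1 and B2. Within these clusters the log2 ratio of set 3 for Mmp2 was 0.06 in A and 0.45 in B. The part of this make-up in the protease to inhibitor ratio was not tested. Mmp2 alone made up 45.7%, 45.1% and 62.4% of protease UMIs in A1 to A3 and 56.1%, 59.6% and 74.1% in B1 to B3. Without Mmp2 the ratio was 0.90, 0.89 and 0.74 in A and 0.76, 0.76 and 0.81 in B, so that in A set 3 became the lowest. Timp2 and Timp3 made up 77.7% to 87.9% of inhibitor UMIs. These are counts of messenger RNA tags and say nothing of active protein.

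Over clusters of at least 50 cells (15 in A, 10 in B) the proteases were spread unevenly, and not all in the same cells. Cluster Ac8, led by Dpt, Aspn and Mgp and with the highest Col1a1 (8273 CPM), was the highest in A for Mmp14 (357 CPM), Mmp16 (74.3 CPM), Mmp23 (135 CPM), Timp2 (202 CPM) and Reck (48.8 CPM). Its intervals were clear of the next cluster for Mmp16 and Mmp23 but not for Mmp14, Timp2 and Reck. Mmp2 was instead highest in Ac11, a PDGFRA-high cluster led by Opcml, Fgf9 and Cd38, at 608 CPM (572 to 646) against 410 CPM in Ac4, the next. Ac11 also had the lowest Timp1 of A, at 2.91 CPM. The cluster holds 221 cells of A3 and 29 of A1 and A2.

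Timp3 marked another PDGFRA-high cluster, Ac1, led by Npnt and Slco2a1, at 212 CPM (198 to 226), with the next cluster at 98.8 CPM. The cluster with the same leading genes in B, Bc4, had 64.6 CPM. In B the highest Timp3 was found in Bc9, an unnamed cluster of 79 cells led by Gdf10, Cdo1 and Rgs5, at 277 CPM (233 to 327). A small cluster of A with Cdo1, Chodl and Gdf10 in the lead (Ac16, 19 cells) had 353 CPM. Rgs5 is a pericyte marker, and Bc9 was given no name, while the naming rule counted Ac16 with other mesenchyme. Mmp11 was highest in Ac2, led by Ogn and Dab1, at 38.0 CPM, and in Bc0, led by Ogn and Cxcl13, at 26.9 CPM. Bc0 was also the highest of B for Mmp23 (90.3 CPM) and Timp2 (171 CPM). Timp1 was highest in clusters led by S-phase genes such as Hist1h1a and Ccne2, at 38.2 CPM in Ac0 and 42.6 CPM in Bc3.

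**Figure D4:**
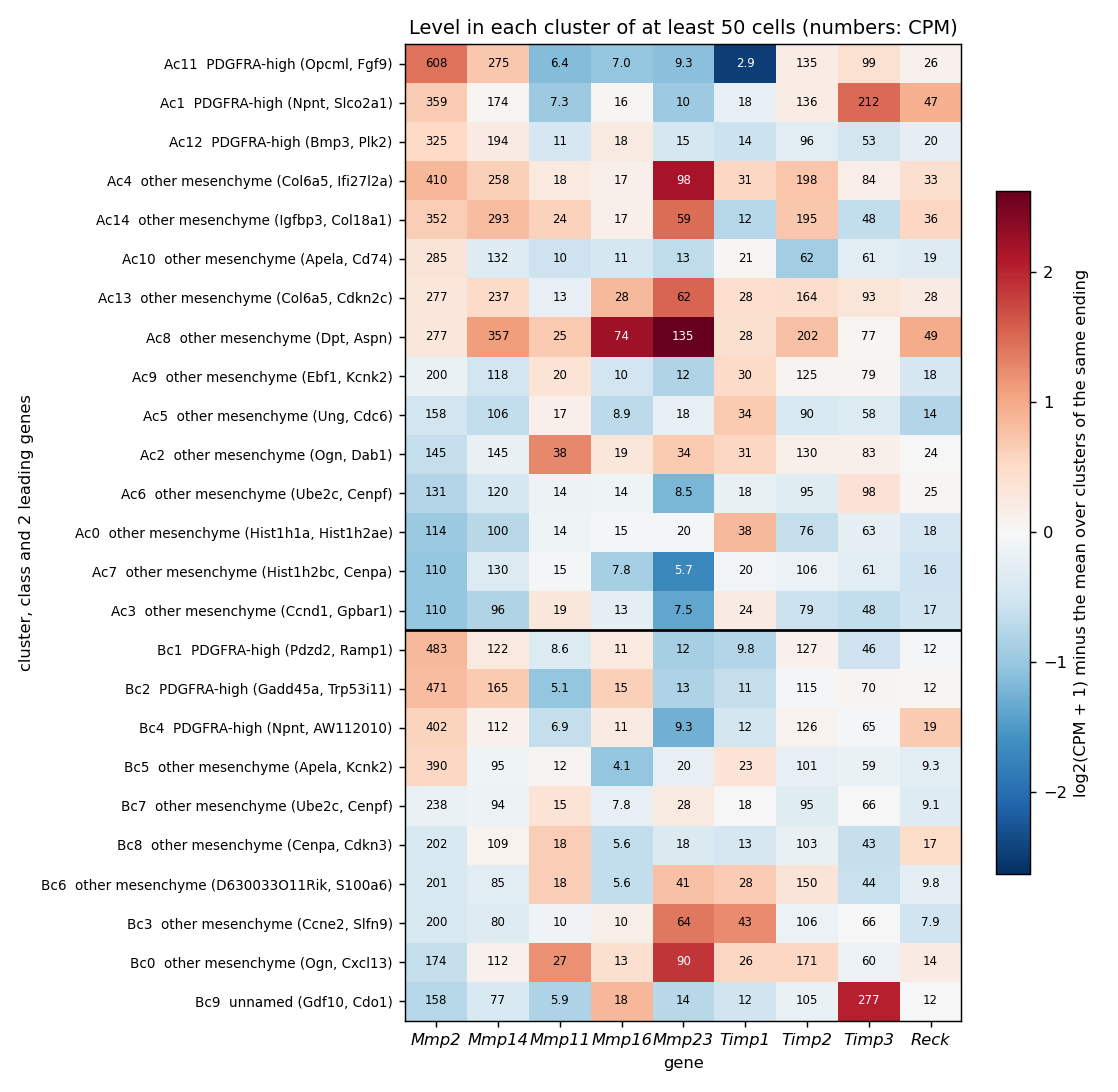
CPM of each gene (numbers) in each cluster of at least 50 cells, ending A above the black line and ending B below it; colour is log2(CPM + 1) minus the gene's mean over clusters of the same ending. Mmp2 is red in all PDGFRA-high clusters and also in Ac4 of other mesenchyme (410 CPM). Mmp23 reaches 135 CPM in Ac8 and Timp3 reaches 212 CPM in Ac1 and 277 CPM in Bc9.

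Within the group, Mmp2 and Mmp14 followed each other over the 25 clusters, with a Pearson r of 0.76 on log2(CPM + 1) after the mean of each ending was subtracted. Timp2 and Reck followed Mmp14 at 0.74 and 0.72, and Timp1 ran against Mmp2 at -0.56. In B alone the values for Timp2 and Reck with Mmp14 fell to 0.20 and 0.44. Outside the group, the genes most like Mmp2 were B430010I23Rik (0.96), Col6a1, a chain of type VI collagen (0.94), and Vat1 (0.94). Those most like Mmp14 were Hspg2, which codes for perlecan (0.91), App (0.89) and Mxra8 (0.87), and those most like Timp2 were Ctsl, a lysosomal protease (0.92), Selenom (0.89) and Gaa (0.88). Clusters share libraries and depth, so these values are descriptions.

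No cell type free of mesenchymal RNA was large enough to give a background. A glia-like cluster of 37 cells in B, with Sox10 among its leading genes, had 149 CPM of Mmp2 and 1884 CPM of Col1a1. A myeloid-like cluster of 11 cells had 161 CPM of Mmp2 and 2990 CPM of Col1a1. At 2000 UMIs, 27.0% (13.8% to 44.1%) of the glia-like cells and 36.4% (10.9% to 69.2%) of the myeloid-like cells held a Mmp2 UMI, at median depths of 7899 and 8762 UMIs before thinning. The share in B1 (35.6%) lay within both intervals. For Mmp14 the glia-like share was 32.4% (18.0% to 49.8%) against 18.7% in B1. For Timp2 it was 27.0% (13.8% to 44.1%) against 23.4%, and for Timp3 24.3% (11.8% to 41.2%) against 10.2%. The glia-like shares of Mmp11, Mmp23 and Reck were below those of B1, on few cells. The part of free RNA in the shares of cells was not tested for any of these genes. Timp3 in Bc9, found in 50.6% (39.1% to 62.1%) of thinned cells, stood beside 24.3% (11.8% to 41.2%) in the glia-like cells, with intervals that just overlap.

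Proteases and inhibitors were next read in the same cells at equal depth. At 2000 UMIs, 51.5% to 71.6% of cells held a UMI of any of the 5 proteases and 33.2% to 43.4% held one of any inhibitor. Both were found in 19.6% to 29.6% of cells, and neither in 18.0% to 31.8%. The share with an inhibitor was 39.2% in protease-positive and 35.0% in protease-negative cells of A1, 39.0% and 34.5% in A2, and 43.5% and 43.3% in A3. In B1 to B3 it was 35.9% and 36.1%, 34.9% and 36.1%, and 33.7% and 31.9%. All 6 pairs of intervals overlapped.

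Over the 20 protease and inhibitor pairs in 6 sets, the inhibitor was found more often in protease-positive cells in 75 of 120 cases and less often in 45. The intervals were apart in 1 of these 120. That case was Mmp14 with Timp2 in A1, where 24.97% (21.7% to 28.5%) of Mmp14-positive cells and 19.7% (17.9% to 21.6%) of Mmp14-negative cells held Timp2. In A2 the shares were 24.1% and 19.5%, in A3 22.1% and 21.5%, in B1 24.3% and 23.1%, in B2 22.4% and 22.9%, and in B3 23.6% and 20.0%. The pair was thus higher in 5 of 6 sets, and in 3 of 6 within PDGFRA-high clusters, where A2, B1 and B2 were below 0 (-0.14, -1.21 and -2.28 points). Mmp23 with Reck was the only pair higher in 6 of 6 sets, by 0.11 to 1.84 percentage points on at most 10 cells a set, with intervals that overlapped in all.

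The protease pair of the activation route, Mmp14 and Mmp2, was found together more often in 6 of 6 sets. Of Mmp14-positive cells 33.9%, 33.8% and 55.0% held Mmp2 in A1 to A3, against 28.6%, 27.1% and 50.4% of Mmp14-negative cells. In B1 to B3 the shares were 37.4%, 39.0% and 63.1% against 35.1%, 38.7% and 60.7%. Only in A2 were the intervals apart, and B2 turned to -0.69 points with thinning to fewer UMIs, -0.15 without the 5% of cells with the most UMIs and -1.90 within other mesenchyme. Within PDGFRA-high clusters A1 was at -1.39 points. Single draws of 2000 UMIs gave a difference below 0 in 4 sets (A3, B1, B2 and B3). Cells with a UMI of Mmp2, Mmp14 and Timp2 all at once made up 1.46% to 3.76% of a set. That was 0.90 to 1.53 times the number that the 3 separate shares would give if multiplied.

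Cells in cycle had fewer Mmp2 and Timp2 UMIs. A cell was called cycling where its 2000 UMIs held Mki67 or Top2a, which mark dividing cells. Mmp2 measured 169, 155 and 341 CPM in cycling cells of A1 to A3 against 215, 210 and 403 CPM in the others. In B1 to B3 it measured 204, 212 and 427 CPM against 249, 286 and 492 CPM. All 6 log2 ratios were below 0, between -0.44 and -0.21, and the counting interval included 0 in B3. Timp2 was lower in cycling cells in 6 of 6 sets too, by -0.56 to -0.26, with intervals that included 0 in A3 and B1. So were Reck (-0.63 to -0.09) and Mmp11 (-0.63 to -0.04), the latter on few UMIs. How many of all genes were lower in 6 of 6 sets was not counted, so no share stands beside these genes. Mmp14 was lower in 5 sets, Mmp23 in 5 and Mmp16 in 4. For Mmp23 this turned within PDGFRA-high clusters, where it was higher in 5 of 6 sets (median log2 ratio 0.51). Every interval there included 0, and only 4 cycling cells stood in A1 and 3 in A2. With cycling read as at least 2 UMIs of the G1/S list, Mmp23 was lower in 2 sets (median 0.31). Timp1 was higher in cycling cells in 6 of 6 sets, by 0.01 to 0.85, with an interval that included 0 in each. Timp3 was higher in 5 and lower in A3 (-0.46, -0.90 to -0.04).

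**Figure D5:**
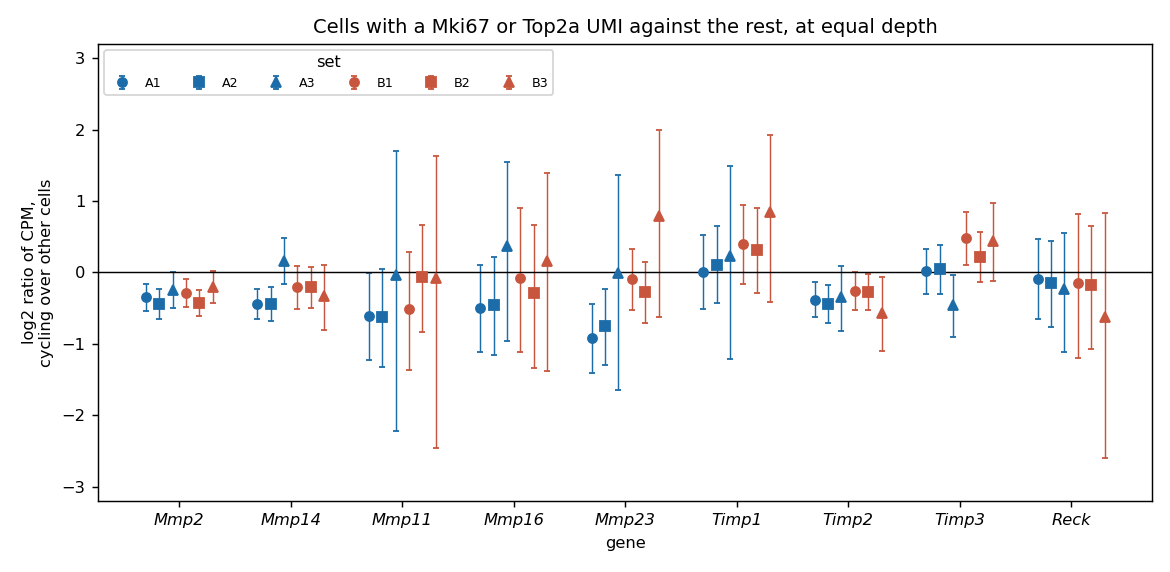
Log2 ratio of CPM (y axis) of cells with a Mki67 or Top2a UMI over the other cells at 2000 UMIs per cell, for each gene (x axis) in each barcode set (A blue, B red; circle, square and triangle for sets 1, 2 and 3), with exact 95% counting intervals. Mmp2 and Timp2 lie below 0 in 6 of 6 sets and Timp1 above 0 in 6 of 6.

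Cells were also graded by their number of cycling UMIs. In A1, cells with 0 UMIs of the G1/S and G2/M lists had 256 CPM of Mmp2 and 175 CPM of Timp2. Cells with 10 or more such UMIs had 168 and 97.4 CPM. In B3 the same groups had 505 and 336 CPM of Mmp2 and 123 and 85.0 CPM of Timp2, the last on 86 cells. The relation was not seen for Mmp2 within PDGFRA-high clusters, where its median log2 ratio over the 6 sets was 0.02, lower in 2 sets and higher in 4. Within other mesenchyme it was -0.18, lower in 4 sets and higher in 2. Timp2 stayed lower in 6 of 6 sets within other mesenchyme (median -0.41) and in 4 of 6 within PDGFRA-high clusters. In A1 the PDGFRA-high value rests on 4 cycling cells, and in A2 on 3.

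Since set 3 held fewer cycling UMIs, its ratios were also read in cells with none of them. Mmp2 then measured 410 CPM in A3 against 264 CPM in A1 and A2, a log2 ratio of 0.64 (0.41 to 0.87), against 1.04 in all thinned cells. In B it was 0.83 (0.70 to 0.97) against 0.96. Mmp14 was lower in A3 among such cells, at 195 against 244 CPM (-0.32, -0.61 to -0.03), and higher in B3 (0.33, 0.09 to 0.57). Mmp23 was further apart in A, at 12.01 against 67.4 CPM (-2.49). Timp3 in A3 stayed higher, at 164 against 75.2 CPM (1.12).

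Other genes of matrix turnover were read from lists of related proteases, inhibitors, partners and substrates, chosen with earlier results of these data known. They were read over all cells of a set and not within classes of cells. PDGFRA-high clusters held 87.6% of the cells of A3 but 2.15% and 1.92% of A1 and A2. These clusters held 91.3% of B3 but 19.0% and 20.5% of B1 and B2. Adamts18 and Pcsk6 were among the 10 leading genes of Ac11, a PDGFRA-high cluster. The part of this make-up in the ratios was not tested. Beside each count stands the share over all genes tested, which was 17.2% higher and 15.9% lower in A and 21% higher and 11.1% lower in B. Of 9 ADAMTS proteases tested in A, 4 were at least 1.5-fold higher in set 3 and 1 was lower, and of 7 in B, 3 were higher and 2 lower. Adamts18 measured 2.39, 2.02 and 109 CPM in A1 to A3 and 10.5, 11.6 and 82.0 CPM in B1 to B3, clear of sets 1 and 2 in both endings. Adamts6 was also higher (log2 ratios 3.59 and 2.36), and Adamts19 was lower in A (-2.73). In B Adamts19 had a ratio of -4.36 but was under 20 CPM in each set. Adamts1 was level in A (0.09) and lower in B (-1.13). None of the ADAM sheddases tested, 3 in A and 2 in B, passed 1.5-fold: Adam10 lay at 0.26 and 0.36 and Adam17, under 20 CPM in B, at 0.03 and 0.47.

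Proprotein convertases, which cut the propeptides of MMP14 and other enzymes, were higher in set 3 in 3 of 4 tested in A and 1 of 2 in B (all genes 17.2% and 21%), and none was lower. Pcsk6 had the largest ratio of the list, with 5.59, 5.32 and 204 CPM in A1 to A3 and 21.3, 24.0 and 182 CPM in B1 to B3. Pcsk5 was higher in A (1.45) and level in B (0.08). Of the plasminogen activator list, 2 of 3 tested in A were higher and 1 lower, and of 2 in B 1 was higher and 1 lower, beside 17.2% and 15.9% of all genes in A and 21% and 11.1% in B. Plat, the tissue activator, was higher at log2 ratios of 0.69 and 0.97, and Fap, a fibroblast serine protease, was lower at -4.14 and -4.71. Plau, the urokinase gene, was higher in A (4.96) and had a ratio of 2.18 in B at under 20 CPM. Of 3 serpins of that system tested in each ending, Serpinb6a was higher in A (0.64) and Serping1 lower in B (-0.78).

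Bmp1, which trims procollagen, was higher at 0.60 and 0.64, and its enhancer Pcolce lay at -0.33 in A and was lower in B (-1.29). Of 13 matrix substrates of MMPs, 7 were higher and 2 lower in A, and 7 were higher and 4 lower in B, beside 17.2% and 15.9% of all genes in A and 21% and 11.1% in B. The basement membrane genes Nid1 (2.39 and 1.57) and Lamc1 (1.88 and 1.74) were among the higher, and Col1a1 was lower (-1.29 and -1.66). Thbs2, a clearance partner of MMP2, was level in A (0.08) and lower in B (-1.59). Of 7 cell surface partners, 3 were higher in each ending (all genes 17.2% and 21%) and 1 was lower in B (all genes 11.1%). Among the higher were Cav1 (3.24 and 1.53) and Cd44 (1.48 and 1.17). Lrp1, a receptor that takes up MMP2, lay at -0.46 in A and was lower in B (-1.06).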

How the data were processed

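The deposited file holds whole-number UMI counts per gene and cell in 1 pooled matrix. Per the submitters' processing notes the authors used Cell Ranger 2.1.1, Seurat and mm10, and no source used here gives their filters. Gene positions come from GENCODE on GRCm38. Cells with fewer than 1000 genes (108) or over 5% mitochondrial UMIs (367) were left out. Doublets were called with Scrublet in scanpy 1.11.5 and removed: 65 cells, 0.512%. In ending A the caller marked 0.331% and is not taken to have worked there.

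UMIs were summed per set and scaled to CPM. Intervals (95%) are Poisson for CPM, Clopper-Pearson for shares and conditional binomial for ratios, from scipy 1.17.1. Cells were thinned without replacement to 2000 UMIs, which left out 41 cells; shares and counts are means over 20 draws, a number chosen after a single draw was seen to move the shares. Intervals of shares use the mean counts rounded to whole cells. Clusters came from 2000 variable genes, 30 components and 15 neighbours with leidenalg 0.10.2 at resolution 1. A cluster was called PDGFRA-high where at least 3 of the 8 markers were at least 2-fold above the other cells of the ending and no other marker list had more of the 10 leading genes. Ratios never cross endings, since the endings may rest on different gene lists. From each related list, the 2 highest and 2 lowest ratios in either ending among genes of at least 20 CPM were named; for likeness, 3 genes of at least 50 CPM in a cluster were named for each of the 3 most abundant members. The ratio intervals were tested on simulated counts with counting error only, which is the model that the intervals assume. That check does not bear on differences between cells or libraries. The members and lists were chosen with earlier results of these data known.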

Additional observations from a re-analysis of the deposited data

Results flagged for a closer look

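In 2 genes, set 3 lay on opposite sides of sets 1 and 2 in the endings. Mmp16 had a log2 ratio of -0.15 in ending A and 0.41 in ending B. Timp2 had 0.11 in ending A and -0.13 in ending B. The difference between endings was not tested, since each set is a single pooled library at most. The counting interval of Mmp16 included 0 in A (-0.42 to 0.10) and excluded it in B (0.05 to 0.75). Both Timp2 intervals excluded 0 (0.02 to 0.21 and -0.24 to -0.02).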

How the results depend on the processing

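No paired analysis was possible because cells could not be assigned to samples and the barcode endings carry no label. Of 198 ratios of set 3 recomputed under other settings, 147 stayed within the counting interval with the same sign, 42 moved beyond it with the same sign and 9 changed sign. In 6 of the 9 the interval of the reported ratio had excluded 0, all in A3: Mmp11 (0.17), Mmp14 (-0.41) and Timp1 (0.35) within PDGFRA-high clusters, Timp2 (-0.40) within other mesenchyme, and Mmp14 (-0.22) and Timp2 (-0.22) in cells without cycling UMIs, a setting added after the data were seen. There the cells were chosen in 1 draw and all their UMIs were read, so Mmp14 differs from the -0.32 of thinned counts. In the other 3 it had included 0: Mmp16 in A3 within other mesenchyme (0.34) and in cells with no epithelium marker UMI (0.19), also added, and Timp3 in B3 without mitochondrial, ribosomal protein and hemoglobin genes (-0.0027). With the minimum of 20 CPM, the number of the 9 genes past 1.5-fold was 0 in both directions and endings within PDGFRA-high clusters, and 0 higher in A3 within other mesenchyme; 4 were lower in A3 without cycling UMIs. Over all genes, the counts higher in A3, lower in A3, higher in B3 and lower in B3 were 1274, 1182, 1344 and 714. These were out of 7421 genes tested in A and 6410 in B. The number tested changed with the setting, so the counts that follow, and those of the 9 genes, are not shares. Without a share over all genes beside them, the counts of the 9 genes are not read as a result about these genes. With no CPM minimum the counts were 5995, 6111, 5041 and 4322, and within PDGFRA-high clusters 426, 366, 359 and 101. Within other mesenchyme 694 were higher and 436 lower in A3 and 360 lower in B3, and without cycling UMIs 461 were lower in B3. The 4 genes lower in cycling cells in 6 sets became 0 within PDGFRA-high clusters and 2 (Timp2, Reck) within other mesenchyme. The share over all genes was not counted for this rule. The median ratio of cycling over other cells became 0.30 for Mmp11 and 0.024 for Mmp2 in PDGFRA-high clusters. In PDGFRA-high clusters, Mmp2 in Mmp14-positive cells was -1.39 points in A1 and Timp2 -0.14 points in A2, -1.21 in B1 and -2.28 in B2. The cause of these moves was not tested. Leaving out a replicate was not run, since no replicates are known. Depth limits Mmp11, Mmp16, Mmp23, Timp1 and Reck most, with under 150 UMIs in 2 to 4 sets each.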

Other observations

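Among the inhibitors, single cells differed most in the number of Timp3 UMIs. The variance of the thinned count was 1.02 to 1.07 times the mean for Timp1, 1.03 to 1.06 for Timp2 and 0.99 to 1.03 for Reck. In A3, 1 cell held 28 Timp3 UMIs, and the variance of the thinned Timp3 count was 1.59 times its mean, against 1.11 to 1.18 in the other 5 sets. Mmp14 in A3 had the next largest value, 1.34, with up to 24 UMIs in a cell. The variance of thinned Mmp2 counts was 1.08 to 1.20 times the mean in the 6 sets.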
